A study of Mus musculus with 9 samples.

Results

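Foxd1, Pdgfra, Pdgfrb, Tcf21, Meis1, Meis2, Dcn, Lum, Ogn and Acta2 are 10 genes used as markers of kidney stroma and interstitium, chosen by symbol from the 26858 genes of the deposited table. Their levels were read in 9 RNA-seq libraries of cells sorted for enhanced green fluorescent protein (eGFP) from mouse kidneys at embryonic day E18.5. The 4 control libraries came from heterozygous Six2-Qpc+/- kidneys and the 5 mutant libraries from Six2-Qpc-/- kidneys. Both genotypes carry a bacterial artificial chromosome transgene in which the *Six2* promoter drives Cre fused to eGFP, so Cre acts in the SIX2 progenitors of the cap mesenchyme, which form the nephron epithelium. Its target is the floxed *Uqcrq* (*Qpc*) gene, which encodes subunit VII of mitochondrial complex III; control cells have lost 1 copy of it, and no library without the transgene was analysed here. The labels call every sample nephron progenitor cells. They give no litter, sex or batch, and do not say that the libraries came from separate animals, so the p-values measure the spread between these libraries. The libraries keep the numbers of their titles, 71, 72, 73 and 76 for control and 74, 75, 77, 78 and 79 for mutant.

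The embryonic kidney stroma lies around the cap mesenchyme and the ureteric bud, and its cells become interstitial fibroblasts, pericytes, mesangium and vascular smooth muscle. FOXD1 marks its progenitors in the cortex, and the lineages of FOXD1 and SIX2 cells are largely separate by this age. Stromal cells sense platelet-derived growth factors (PDGF) through the receptor tyrosine kinases PDGFRα and PDGFRβ and lay down collagen with small leucine-rich proteoglycans such as decorin, lumican and osteoglycin. Some of the 10 genes are also made outside the stroma, such as *Tcf21* in podocytes.

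Sequences upstream of 4 of the genes that were higher in mutant cells are shown first: *Foxd1*, which defines stromal progenitors, *Pdgfra* and *Ogn*, which had the largest changes, and *Acta2*, the contractile gene. They were read from the RefSeq promoter table on GRCm38.p6, which had an entry for 7 of the 10 genes. The 250 bases before each start were searched on both strands for the MEIS motif TGACAG, the E-box CAGCTG, the CCAAT box, the GC box GGGCGG and the CArG box, which is CC, 6 bases of A or T, and GG. Of the *Foxd1* window, 3 bases in an annotated exon are left out, so its run has 247 bases. Capitals mark the matches, and positions count back from the start. The regions are chr13:98353995-98354241 on the plus strand for *Foxd1*, chr5:75152001-75152250 on the plus strand for *Pdgfra* and chr13:49607765-49608014 on the plus strand for *Ogn*.
Foxd1: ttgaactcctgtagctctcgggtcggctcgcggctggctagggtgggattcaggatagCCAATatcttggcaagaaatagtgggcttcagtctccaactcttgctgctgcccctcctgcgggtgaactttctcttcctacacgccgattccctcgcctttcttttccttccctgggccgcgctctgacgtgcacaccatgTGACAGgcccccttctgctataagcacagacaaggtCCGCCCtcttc
Pdgfra: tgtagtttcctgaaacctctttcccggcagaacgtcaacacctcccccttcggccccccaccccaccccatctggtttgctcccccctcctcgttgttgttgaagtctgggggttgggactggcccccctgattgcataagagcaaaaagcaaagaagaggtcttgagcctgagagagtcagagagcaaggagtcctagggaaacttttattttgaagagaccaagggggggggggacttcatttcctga
Ogn: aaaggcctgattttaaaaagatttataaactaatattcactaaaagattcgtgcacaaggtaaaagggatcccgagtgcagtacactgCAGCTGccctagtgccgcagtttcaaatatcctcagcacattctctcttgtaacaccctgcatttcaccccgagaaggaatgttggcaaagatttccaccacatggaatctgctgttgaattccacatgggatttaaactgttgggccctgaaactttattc
The *Foxd1* run holds CCAAT at −192 to −188, TGACAG at −50 to −45 and the GC box on the other strand at −14 to −9. The *Ogn* run holds CAGCTG at −162 to −157, and the *Pdgfra* run holds none of the motifs searched. For *Acta2*, 30 bases around each of 2 CArG-like matches are given, at chr19:34255438-34255467 and chr19:34255388-34255417 on the minus strand. Of the 250 bases before the *Acta2* start, 217 are annotated as exon, and both of these stretches lie within them. The *Acta2* window also holds CAGCTG at −182 to −177.
Acta2, distal: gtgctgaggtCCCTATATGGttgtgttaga
Acta2, proximal: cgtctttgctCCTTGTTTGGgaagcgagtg
These lie at −84 to −75 and −34 to −25, and each has 5 of its 6 middle bases as A or T. Of 32851 promoter windows of the same length in the table, 8.59% hold at least 1 match of this looser form and 1.47% the strict CArG box. TGACAG is found in 15.9% of the windows, CAGCTG in 13.0%, CCAAT in 33.8% and GGGCGG in 32.7%. A match is a description of letters here, and binding of a factor was not measured in these data.

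The libraries held 21040536 to 23986458 counted reads, and all 10 genes passed the filter on low counts, with at least 26 reads for each gene in every library. Values are given as CPM, the reads of a gene in 1e+06 reads after normalization of the libraries, a scale that does not correct for gene length. *Uqcrq*, the targeted gene, was at 76.8 to 107 CPM in control and 16.5 to 28.2 CPM in mutant libraries, with a log2 fold change of −2.14 ± 0.16 (SE; edgeR adjusted p = 2.09e-05). *Six2* was at 506 to 623 CPM in control and 529 to 795 CPM in mutant libraries (adjusted p = 0.131, edgeR), so this marker of the labelled cell type was abundant in both genotypes. With edgeR's quasi-likelihood test and Benjamini-Hochberg adjustment over 14990 genes, 7 of the 10 stromal markers were higher in mutant cells (*Foxd1*, *Tcf21*, *Meis1*, *Meis2*, *Pdgfra*, *Ogn* and *Acta2*), 0 were lower, and *Pdgfrb*, *Dcn* and *Lum* did not pass the threshold. Among all genes tested, 7.82% were called higher and 7.02% lower. Every mutant library lay above every control library for 5 of the 10 (*Foxd1*, *Meis1*, *Meis2*, *Pdgfra* and *Ogn*), against 7.5% of all genes tested, and every mutant library lay below every control library for 0 of the 10, against 7.73%. The median log2 fold change was 0.94 over the 10 markers and −0.009 over all genes tested. In sorted bulk cells, a change in the share of a cell type and a change in RNA per cell cannot be told apart. The study reported a lower share of eGFP+ cells in mutant than in control kidneys at this age. It could not fully exclude that differentiating control cells with low eGFP were sorted as well.

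**Figure D1:**
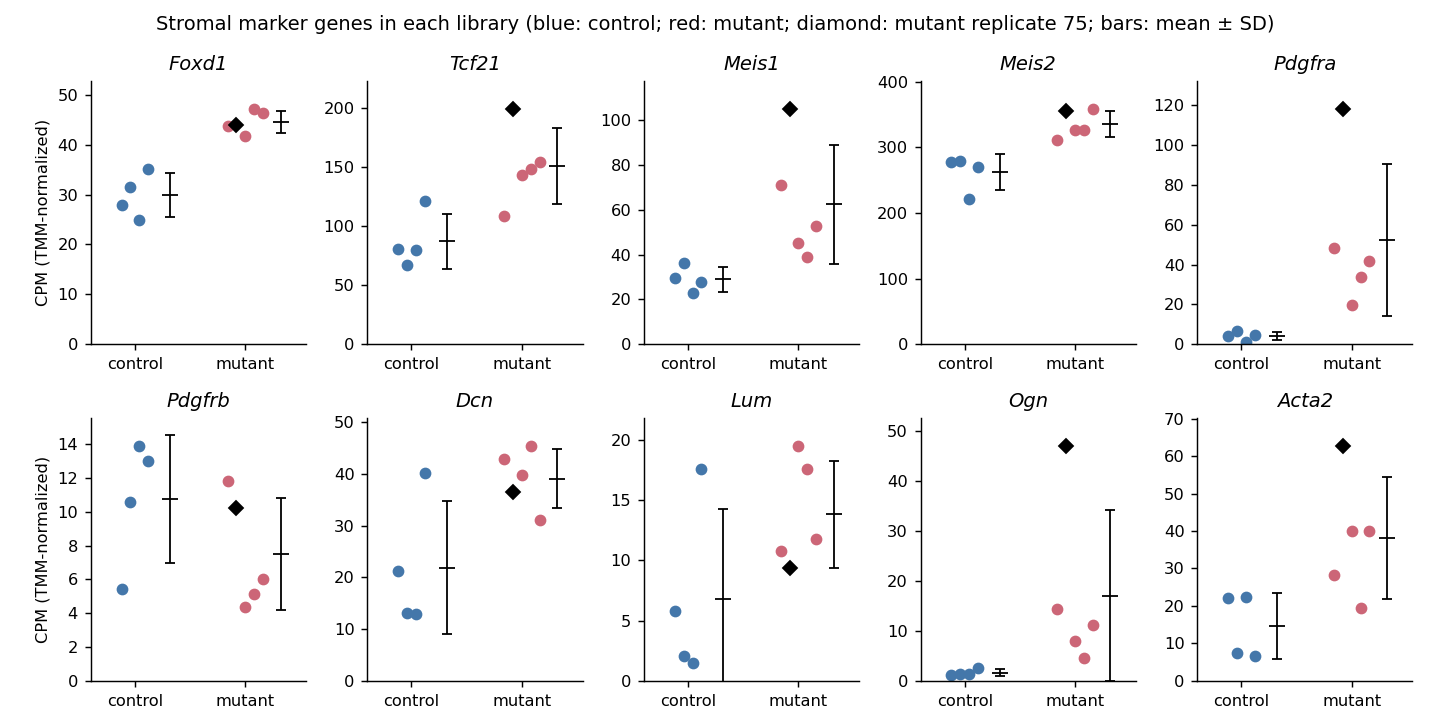
CPM (vertical axes, linear, from 0) of the 10 stromal markers in each of the 4 control libraries (blue) and 5 mutant libraries (red, with mutant replicate 75 as a black diamond); bars show the mean ± SD, and the lower bar of *Lum* in control cells is cut at 0. The genotypes are apart for *Foxd1*, *Meis1*, *Meis2*, *Pdgfra* and *Ogn*, and mutant replicate 75 stands highest for *Tcf21*, *Meis1*, *Pdgfra*, *Ogn* and *Acta2*.

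Of the transcription factors, *Foxd1* (chromosome 13, 98354242 to 98356703, GRCm38), a forkhead factor needed in cortical stroma, had 27.9, 31.5, 24.9 and 35.1 CPM in control replicates 71, 72, 73 and 76. It had 43.7, 44.0, 41.7, 47.1 and 46.3 CPM in mutant replicates 74, 75, 77, 78 and 79. The mutant libraries were close together and all lay above the control libraries. The control mean of 29.9 ± 4.41 CPM (SD, n = 4) and the mutant mean of 44.6 ± 2.15 CPM (SD, n = 5) gave a log2 fold change of 0.58 ± 0.13 (SE; edgeR adjusted p = 0.0121). *Foxd1* is thus a gene of modest change but small spread, with a coefficient of variation of 4.83% among the mutant libraries. Its 2-sided exact permutation test gave p = 0.00794, the smallest that 4 libraries against 5 allow.

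*Tcf21* (chromosome 10, 22817279 to 22820128), a basic helix-loop-helix factor of kidney mesenchyme, had 80.6, 67.1, 79.4 and 121 CPM in the control libraries in the same order. In the mutant libraries it had 109, 199, 143, 148 and 154 CPM. The genotypes overlapped, because control replicate 76 was above mutant replicate 74. The fitted log2 fold change was 0.79 ± 0.19 (SE; edgeR adjusted p = 0.0155; exact permutation p = 0.0238).

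The MEIS genes encode homeobox factors of the TALE class that bind DNA together with PBX partners. *Meis1* (chromosome 11, 18879817 to 19018985) had 29.4, 36.1, 22.7 and 27.6 CPM in control libraries. It had 71.2, 105, 45.2, 38.9 and 52.9 CPM in mutant libraries, which did not overlap with the control libraries, mutant replicate 78 being nearest to them. The control mean of 28.9 ± 5.53 CPM (SD, n = 4) and the mutant mean of 62.5 ± 26.4 CPM (SD, n = 5) gave a log2 fold change of 1.11 ± 0.26 (SE; edgeR adjusted p = 0.0136). *Meis2* (chromosome 2, 115863064 to 116065839) was the marker with the highest CPM in every library, with 277, 279, 221 and 270 CPM in control and 311, 355, 326, 327 and 358 CPM in mutant libraries. It was higher in mutant cells by a log2 fold change of 0.36 ± 0.11 (SE; edgeR adjusted p = 0.0419), the smallest among the genes called. Per kilobase of gene length, the *Meis2* level was 12.9, 10.6, 13.4 and 13.4 times that of *Meis1* in control libraries. The ratio was 5.99, 4.66, 9.90, 11.6 and 9.30 in mutant libraries, so that mutant replicate 78 reached into the control range (2-sided exact permutation p = 0.0476, unadjusted). This ratio and that of the PDGF receptors were chosen after the values were seen, so their p-values are no independent evidence. The annotation also gives *Meis1* 1029 of its 10532 exon bases in common with a transcript on the same strand, and the part of those reads was not tested.

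The calls of the transcription factors were sensitive to single libraries, that of *Meis2* most. Of the 9 fits with 1 library left out, *Foxd1* and *Meis1* were each called in 8 and *Tcf21* in 7. Without control replicate 73, the lowest library for *Foxd1*, *Meis1* and *Meis2*, the log2 fold changes were 0.50 for *Foxd1*, 0.75 for *Tcf21*, 1.01 for *Meis1* and 0.28 for *Meis2*, with edgeR adjusted p = 0.0509, 0.0555, 0.0515 and 0.151. *Tcf21* also missed the threshold without control replicate 71 (adjusted p = 0.0509, edgeR), and *Meis2* kept its call in 1 of the 9 fits with 1 library left out, the one without mutant replicate 74. In the other fits that left out 1 library, the edgeR adjusted p of *Meis2* was 0.0592 to 0.151, and it was called in 5 of 17 alternatives. Over 17 alternative fits the edgeR, DESeq2 or limma adjusted p ranged from 0.000436 to 0.0509 for *Foxd1*, from 0.00101 to 0.0555 for *Tcf21*, from 0.000221 to 0.0515 for *Meis1* and from 0.00455 to 0.151 for *Meis2*.

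Of the PDGF receptors, *Pdgfra* was higher in mutant cells and *Pdgfrb* did not pass the threshold. *Pdgfra* (ENSMUSG00000029231, chromosome 5, 75152291 to 75198204), which encodes a receptor for PDGF-A and PDGF-C, had 94, 170, 29 and 112 reads in the control libraries, or 4.00, 6.62, 1.22 and 4.73 CPM. In the mutant libraries it had 1137, 2674, 390, 684 and 921 reads, or 48.5, 118, 19.9, 33.6 and 41.8 CPM. The lowest mutant library was above the highest control library by a wide margin. The mean rose from 4.14 ± 2.24 CPM (SD, n = 4) to 52.4 ± 38.4 CPM (SD, n = 5), a ratio of 12.7, which gave a log2 fold change of 3.66 ± 0.62 (SE; edgeR adjusted p = 0.00623; exact permutation p = 0.00794). The call was kept in 17 of 17 alternatives, with log2 fold changes from 2.94 to 4.05. The annotation has an antisense transcript that shares 456 of its 10024 exon bases, which libraries without strand cannot separate.

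*Pdgfrb* (chromosome 18, 61045150 to 61085061), the receptor of pericytes and mesangial cells, had 5.45, 10.6, 13.9 and 13.0 CPM in control libraries. It had 11.8, 10.2, 4.39, 5.12 and 6.03 CPM in mutant libraries. Mutant replicates 74, 75 and 79 lay within the control range, and mutant replicates 77 and 78 were below every control library. The fitted log2 fold change was −0.51 ± 0.33 (SE; edgeR adjusted p = 0.315; exact permutation p = 0.238). It was called lower in 2 of 17 alternatives, at −0.92 with limma-voom and sample quality weights (adjusted p = 0.0278) and at −1.05 without mutant replicates 74 and 75 (adjusted p = 0.0372, edgeR), within a range of adjusted p from 0.0278 to 0.579.

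Per kilobase, the *Pdgfra* level was 0.606, 0.516, 0.0728 and 0.301 times that of *Pdgfrb* in control libraries. It was 3.39, 9.60, 3.74, 5.43 and 5.72 times that of *Pdgfrb* in mutant libraries. *Pdgfrb* was the more abundant receptor transcript in all 4 control libraries and *Pdgfra* in all 5 mutant libraries (2-sided exact permutation p = 0.00794, unadjusted). The ratio is taken within each library and does not depend on the normalization between libraries.

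**Figure D2:**
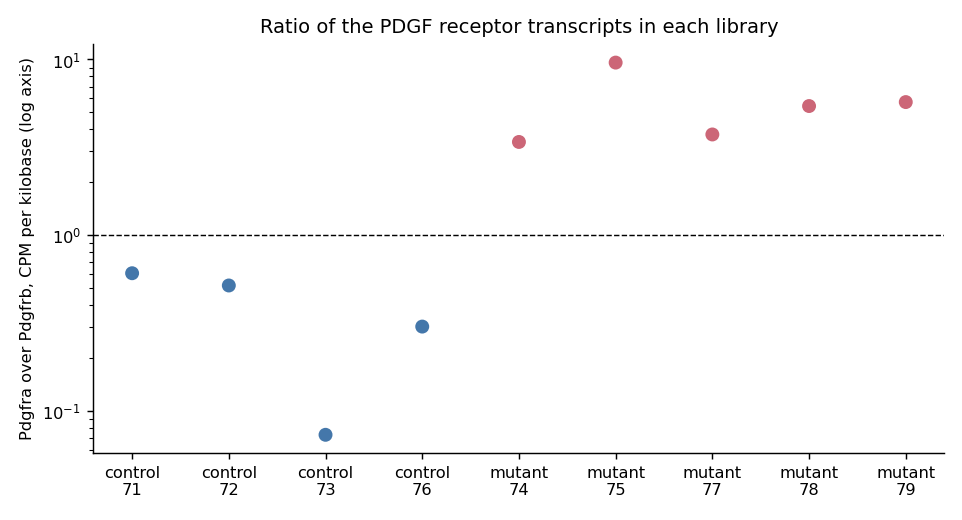
Ratio of *Pdgfra* to *Pdgfrb*, each in CPM per kilobase of gene length (vertical axis, log scale), in the 4 control libraries (blue) and 5 mutant libraries (red); the dashed line marks a ratio of 1. Control libraries lie between 0.0728 and 0.606 and mutant libraries between 3.39 and 9.60.

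The matrix genes encode small leucine-rich proteoglycans that bind collagen fibrils. *Ogn* (osteoglycin, ENSMUSG00000021390, chromosome 13, 49608071 to 49624500) had 26, 38, 33 and 63 reads in control libraries, or 1.11, 1.48, 1.39 and 2.66 CPM. It had 339, 1061, 158, 95 and 246 reads in mutant libraries, or 14.4, 47.0, 8.06, 4.67 and 11.2 CPM. All mutant libraries were above all control libraries, and mutant replicate 75 was far above the other mutant libraries. The mean rose from 1.66 ± 0.685 CPM (SD, n = 4) to 17.1 ± 17.1 CPM (SD, n = 5), a ratio of 10.3, which gave a log2 fold change of 3.36 ± 0.65 (SE; edgeR adjusted p = 0.00748), and the call was kept in 17 of 17 alternatives. *Ogn* lies within the span of *Cenpp*, a centromere gene on the opposite strand with a mean of 519 reads per library; the annotation gives them 0 shared exon bases, and the part of *Cenpp* intron reads was not tested.

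*Dcn* (decorin, chromosome 10, 97479500 to 97518162) and *Lum* (lumican, chromosome 10, 97565501 to 97572703) are neighbours on the same strand. *Dcn* had 21.2, 13.2, 12.9 and 40.2 CPM in control libraries and 42.8, 36.5, 39.8, 45.4 and 31.0 CPM in mutant libraries. *Lum* had 5.84, 2.10, 1.52 and 17.6 CPM in control libraries and 10.8, 9.39, 19.5, 17.6 and 11.8 CPM in mutant libraries. For both genes 3 control libraries were below every mutant library, and control replicate 76 was within the mutant range. The log2 fold change was 0.84 for *Dcn* (SE 0.29, edgeR adjusted p = 0.0663) and 1.03 for *Lum* (SE 0.61, edgeR adjusted p = 0.273). Without control replicate 76 both genes were called higher, *Dcn* at 1.32 (adjusted p = 0.00304, edgeR) and *Lum* at 2.14 (adjusted p = 0.00842, edgeR). Over the 17 alternatives the adjusted p ranged from 0.00157 to 0.179 for *Dcn* and from 0.00282 to 0.49 for *Lum*.

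*Acta2* (chromosome 19, 34241090 to 34255336), which encodes the smooth muscle α-actin of vascular and myofibroblast cells, had 22.1, 7.48, 22.4 and 6.58 CPM in control libraries. It had 28.3, 62.7, 40.0, 19.4 and 40.1 CPM in mutant libraries. The control libraries fell into a low and a high pair, and mutant replicate 78 lay between them, so the genotypes overlapped. The fitted log2 fold change was 1.38 ± 0.42 (SE; edgeR adjusted p = 0.0485), and the exact permutation p was 0.0317. The call lay at the threshold: it was kept in 6 of 17 alternatives, with adjusted p from 0.0344 to 0.185, and lost on leaving out control replicate 72 (0.133) or 76 (0.0808) or mutant replicate 74 (0.0717), 75 (0.0805), 77 (0.0861) or 79 (0.0815), by edgeR adjusted p.

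**Figure D3:**
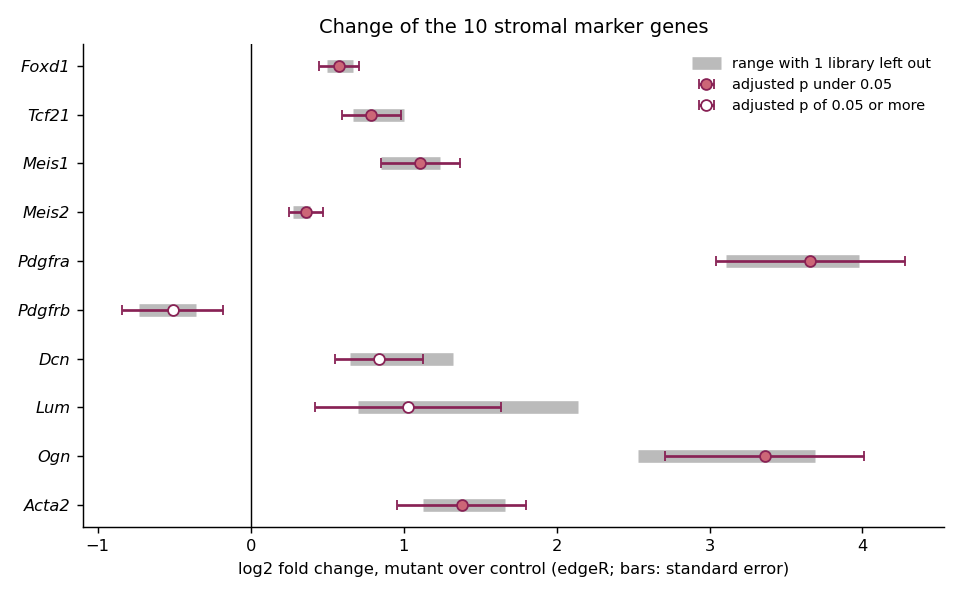
log2 fold change of each stromal marker, mutant over control (horizontal axis), from edgeR with its standard error as a bar; filled points have an adjusted p under 0.05, and grey bands span the 9 fits with 1 library left out. The bands of *Pdgfra* (3.11 to 3.98) and *Ogn* (2.53 to 3.69) lie apart from the others, and that of *Lum* (0.70 to 2.14) is the widest.

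Compared per kilobase of gene length, the levels of the markers spanned a wide range within the same cells. The lengths are those deposited by the authors, and the order of the genes depends on them. For *Tcf21* the deposited length is 1223 bases, whereas the annotation gives 2349 exon bases, so its place above *Meis2* is uncertain. In control libraries *Tcf21* was highest, with 71.1 ± 19.0 CPM per kilobase (SD, n = 4), followed by *Meis2* with 47.6 ± 4.93, and neither overlapped with its neighbour in that order. *Foxd1* (12.1 ± 1.79), *Dcn* (11.6 ± 6.79) and *Acta2* (8.22 ± 4.94) overlapped with each other, as did *Meis1* (3.83 ± 0.732), *Lum* (3.25 ± 3.59) and *Pdgfrb* (1.98 ± 0.695) with their neighbours. *Ogn* (0.653 ± 0.27) and *Pdgfra* (0.631 ± 0.341) were lowest and did not differ beyond their spread. In mutant libraries *Tcf21* (123 ± 26.4 CPM per kilobase; SD, n = 5) and *Meis2* (60.9 ± 3.70) were again highest and apart from each other. *Acta2* (21.4 ± 9.12), *Dcn* (20.7 ± 2.98) and *Foxd1* (18.1 ± 0.875) formed an overlapping group, followed by *Meis1* (8.28 ± 3.50), *Pdgfra* (7.98 ± 5.84), *Ogn* (6.72 ± 6.74) and *Lum* (6.65 ± 2.15). *Pdgfrb* was lowest, at 1.38 ± 0.606, and overlapped with *Ogn* through mutant replicate 78.

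Mutant replicate 75 was looked at alone, as a description without a test. It was the highest of the 9 libraries for 5 of the 10 markers (*Pdgfra*, *Tcf21*, *Meis1*, *Ogn* and *Acta2*), whereas it was highest for 14.1% of all genes tested. Each of the other 8 libraries was highest for 6.63% to 15.8% of all genes tested, so the library was not high for genes at large. Against the other mutant libraries alone, it was highest for 22.2% of all genes tested and 30.5% of the 1172 genes called higher. The summed level of the 10 markers was 986 CPM in this library, 687 to 753 CPM in the other mutant libraries and 402 to 538 CPM in the control libraries.

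The excess was uneven across the markers. On the log2(CPM + 0.5) scale, the difference between mutant replicate 75 and the median of the other 4 mutant libraries was 2.25 for *Ogn*, a value above that of 99.9% of all genes tested. It was 1.65 for *Pdgfra* (above 99.4% of genes), 1.09 for *Meis1* (98.1%), 0.89 for *Acta2* (97.0%), 0.82 for *Pdgfrb* (96.4%) and 0.45 for *Tcf21* (89.6%). The remaining markers were near or below the other mutant libraries, with differences of 0.12 for *Meis2*, −0.03 for *Foxd1*, −0.18 for *Dcn* and −0.59 for *Lum*, for which it was the lowest mutant library. Against the median of the other mutant libraries, *Pdgfra*, *Meis1*, *Ogn*, *Acta2*, *Pdgfrb* and *Tcf21* transcripts were thus high in mutant replicate 75. *Foxd1*, decorin and lumican transcripts were not, although *Foxd1* there lay above every control library.

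**Figure D4:**
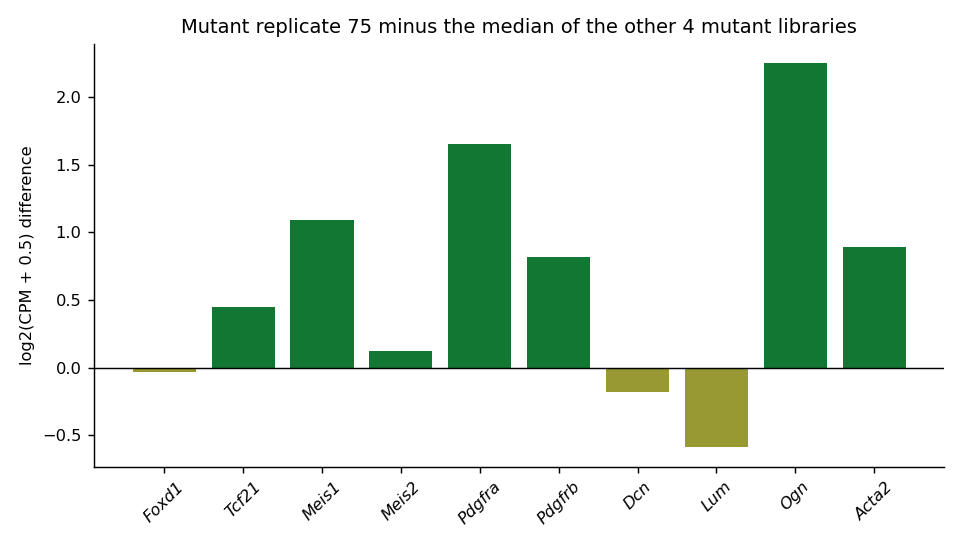
Difference of mutant replicate 75 from the median of the other 4 mutant libraries on the log2(CPM + 0.5) scale (vertical axis) for the 10 stromal markers; green bars are above 0 and olive bars below. The bars run from 2.25 for *Ogn* to −0.59 for *Lum*.

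Without mutant replicate 75, the mutant mean was 35.9 ± 12.3 CPM for *Pdgfra*, 9.59 ± 4.19 CPM for *Ogn* and 52.0 ± 14.0 CPM for *Meis1* (SD, n = 4), and the mutant libraries still lay above the control libraries for all 3 genes. Their log2 fold changes were then 3.11, 2.53 and 0.85, with edgeR adjusted p = 0.00145, 0.00261 and 0.0201. *Tcf21* remained called (0.67, adjusted p = 0.0321, edgeR), as did *Foxd1* (0.58, adjusted p = 0.0228, edgeR). *Meis2* (0.34, adjusted p = 0.081, edgeR) and *Acta2* (1.13, adjusted p = 0.0805, edgeR) missed the threshold, which left 5 of the 10 called higher. Control replicate 73 was the lowest of all libraries for 6 of the 10 markers (*Foxd1*, *Pdgfra*, *Meis1*, *Meis2*, *Dcn* and *Lum*) and for 7.0% of all genes tested. It was at the same time the highest of all libraries for *Pdgfrb* and the highest control library for *Acta2*. Leaving it out left 3 called, *Pdgfra*, *Ogn* and *Acta2*.

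Genes related to the markers were then counted from lists set by hand with earlier results of these data known. The counts are therefore no independent evidence beside the markers. The shares to set beside the count of each list are those of all genes tested, 7.82% called higher and 7.02% called lower. Of 20 other genes of embryonic kidney stroma, 19 were tested, 9 rose, 0 fell and 10 did not pass, with a median log2 fold change of 0.98. *Ntn1*, which encodes the guidance molecule netrin-1, was at 0.633 to 2.38 CPM in control and at 5.61 to 29.2 CPM in mutant libraries (log2 fold change 3.85, adjusted p = 0.00123, edgeR). *Thy1*, a surface glycoprotein of fibroblasts, had 0 to 5 reads in control and 17 to 93 reads in mutant libraries (3.78, adjusted p = 0.00516, edgeR). *Thy1* passed the filter on low counts only through the mutant libraries, so its call, counted among the 9, is no support for the list. *Penk*, the enkephalin precursor, had 11.3 to 42.4 CPM against 89.7 to 426 CPM (2.63, adjusted p = 0.0191, edgeR), and the fibrillar collagen *Col3a1* had 6.79 to 23.2 CPM against 38.8 to 180 CPM (2.44, adjusted p = 0.0219, edgeR). The other genes called were *Ecm1*, *Col1a1*, *Fbln5*, *Smoc2* and *Sfrp1*. The 10 that were not called included *Postn*, at 2.19 (adjusted p = 0.0624, edgeR), and *Aldh1a2*, at 0.07 (adjusted p = 0.741, edgeR). The summed level of the list was 1610 to 1940 CPM in control and 1920 to 3150 CPM in mutant libraries. Mutant replicate 75 was the highest library for 13 of the 20 genes, against 14.1% of all genes tested. With 1 library left out, 6 to 11 of the genes were called higher, and 9 without mutant replicate 75; without control replicate 73, 1 was called lower.

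Fewer of the genes related to single markers were called. Of 12 other small leucine-rich proteoglycan genes, 4 were tested and 0 were called, with a median log2 fold change of 0.28; *Bgn* (biglycan) had 9.02 to 10.4 CPM in control and 6.84 to 20.0 CPM in mutant libraries (0.45, adjusted p = 0.31, edgeR). Of the 4 PDGF ligand genes, *Pdgfa* was lower in mutant cells, with 57.3 to 102 CPM against 50.4 to 63.8 CPM (−0.48, adjusted p = 0.0461, edgeR). *Pdgfc* (0.00, adjusted p = 0.982), *Pdgfd* (0.01, adjusted p = 0.983) and *Pdgfb* (1.53, adjusted p = 0.2) did not pass the edgeR threshold. The call of *Pdgfa* was lost on leaving out any library except control replicate 76 or mutant replicate 74.

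Among 9 other TALE homeobox genes, 0 were called higher and 2 lower, with a median log2 fold change of −0.12. *Pknox2*, which encodes a PREP homeobox factor related to the MEIS factors, was lower, with 7.17 to 14.4 CPM in control and 4.03 to 5.49 CPM in mutant libraries (−1.16, adjusted p = 0.00666, edgeR). *Meis3* was lower, with 36.4 to 48.9 CPM against 22.7 to 40.4 CPM (−0.60, adjusted p = 0.0381, edgeR), opposite in sign to *Meis1* and *Meis2*. With 1 library left out, the number of these genes called lower was 1, except without mutant replicate 74, where it was 2. Of 14 smooth muscle and mural genes, 10 were tested, 1 rose and 1 fell, with a median of 0.11. *Tpm2*, a tropomyosin, was higher, with 272 to 419 CPM against 393 to 540 CPM (0.48, adjusted p = 0.0456, edgeR), and *Cspg4*, the pericyte proteoglycan NG2, was lower, with 7.72 to 17.6 CPM against 1.89 to 9.33 CPM (−1.61, adjusted p = 0.016, edgeR). *Tagln*, a smooth muscle gene often read with *Acta2*, did not pass (−0.26, adjusted p = 0.708, edgeR). The number called higher in this list was 0 without control replicate 72 or 73 or mutant replicate 75, 77 or 79.

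**Figure D5:**
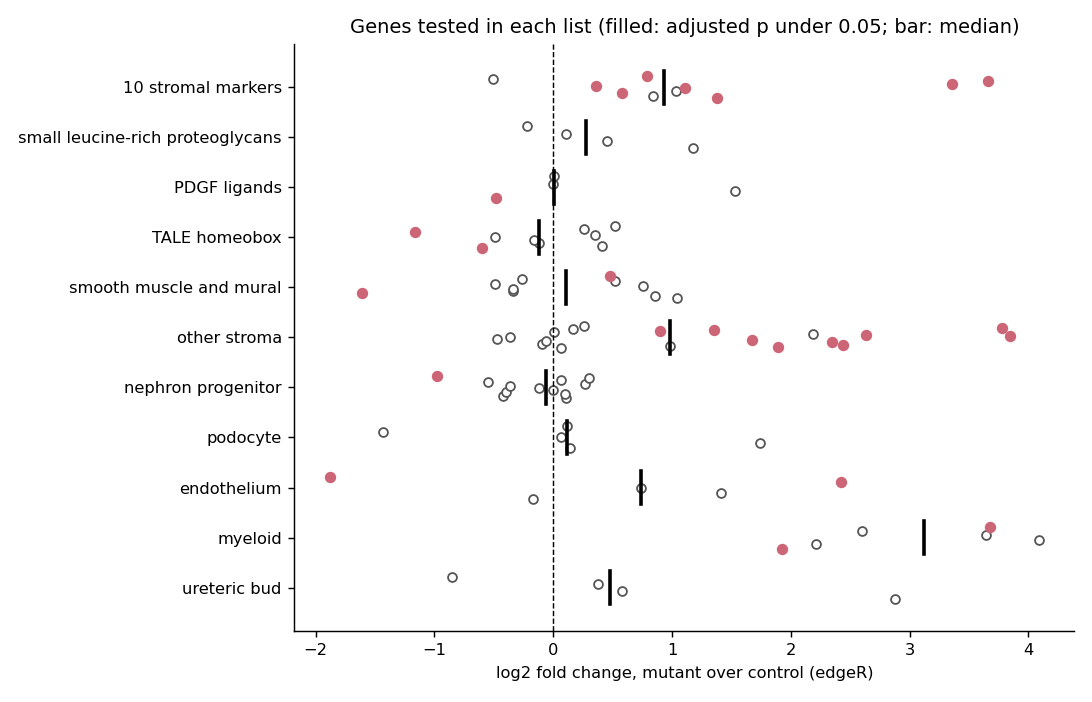
log2 fold change, mutant over control (horizontal axis, edgeR), of every tested gene in the 10 stromal markers and in the lists of related genes and of other cell types (rows); filled points have an adjusted p under 0.05 and the black bar is the median of the row. The medians of the markers (0.94) and of other stromal genes (0.98) lie to the right of 0. So do those of the myeloid (3.12), endothelial (0.74) and ureteric bud (0.48) lists. These 3 lists hold genes that could not pass the filter on low counts from the control libraries alone. The medians of nephron progenitor genes (−0.06) and PDGF ligands (0.01) are close to 0.

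Markers of the other cells a kidney sort could hold were read beside these values. Of 12 nephron progenitor genes, 0 rose and 1 fell, *Tmem100* (−0.98, adjusted p = 0.0124, edgeR), and their summed level was 2190 to 2680 CPM in control and 2180 to 2630 CPM in mutant libraries, with 2230 CPM in mutant replicate 75. Of 7 myeloid genes, 6 were tested and 2 rose, the lysosomal *Cd68* (1.93, adjusted p = 0.00874, edgeR) and the signalling adaptor *Tyrobp* (3.68, adjusted p = 0.0234, edgeR). All 6 had a fitted value above 0, with a median log2 fold change of 3.12, larger than that of the stromal markers. Those not called were *Fcgr3* (4.09, adjusted p = 0.0535, edgeR), with 0 to 1.87 CPM in control and 2.51 to 30.9 CPM in mutant libraries, *Lyz2* (3.64, adjusted p = 0.0806), *Ptprc* (2.60, adjusted p = 0.0659) and *Csf1r* (2.21, adjusted p = 0.0535). *Ptprc*, *Csf1r*, *Lyz2*, *Tyrobp* and *Fcgr3* had 0 to 2 reads in the lowest control library of each. These genes could not pass the filter on low counts from the control libraries alone. Their signs, the call of *Tyrobp* and the median are therefore no support for a rise of the list. The summed myeloid level was 2.43 to 8.57 CPM in control and 9.29 to 99.9 CPM in mutant libraries. Mutant replicate 77 was highest, and mutant replicate 75 had 39.7 CPM. The number of myeloid genes called higher was 6 without mutant replicate 74 or with DESeq2, and 1 without mutant replicate 78. *Fcgr3* and the leukocyte gene *Ptprc* were each at 0 in at least 1 control library, and *Cx3cr1* was at 0 in at least 1 library of each genotype. Their part in the change of the stromal markers was not tested.

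Of 8 endothelial genes, 5 were tested. *Pecam1* had 0 to 9 reads in control and 9 to 57 reads in mutant libraries (2.42, adjusted p = 0.0469, edgeR), and passed the filter on low counts only through the mutant libraries. *Plvap* fell (−1.88, adjusted p = 0.00121, edgeR). The number of endothelial genes called higher was 0 when only genes with 10 or more reads in each of the libraries were kept, and with any library except mutant replicate 75 left out. The summed endothelial level was 16.4 to 24.7 CPM in control and 7.67 to 14.9 CPM in mutant libraries, with mutant replicate 75 within the mutant range. Most of this sum was *Plvap*, with a mean of 17.7 CPM in control and 4.83 CPM in mutant libraries. *Emcn* also had a lower mutant mean. *Pecam1*, *Cdh5*, *Kdr*, *Tek*, *Flt1* and *Tie1* had higher mutant means, all at low levels. *Cdh5*, not tested, had 0 to 1 reads in control and 2 to 17 reads in mutant libraries. Of 7 podocyte genes, 5 were tested and 0 called, with sums of 212 to 252 CPM and 215 to 291 CPM, mutant replicate 75 being the lowest mutant library, while *Nphs1* stayed at or under 0.256 CPM. Of 8 ureteric bud genes, 4 were tested and 0 called, with sums of 28.1 to 56.2 CPM and 26.0 to 76.5 CPM; *Ret* was at or under 0.639 CPM and *Wnt9b* at or under 0.295 CPM. *Calb1* had at most 0.701 CPM in control libraries and reached higher values in some mutant libraries (log2 fold change 2.88, adjusted p = 0.154), *Krt8* had 1.56 to 9.69 CPM against 1.03 to 19.1 CPM, and *Krt18* had a highest value of 27.2 CPM in control and 45.5 CPM in mutant libraries. *Wnt11* went the other way, with 7.93 to 18.4 CPM in control and 4.18 to 9.61 CPM in mutant libraries (−0.85, adjusted p = 0.0701, edgeR). Without control replicate 76 or mutant replicate 74 the podocyte and ureteric bud lists each had 1 gene called lower. Without mutant replicate 75, 1 nephron progenitor gene was called higher. The part of any of these cell types in the changes was not tested.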

How the data were processed

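RNA of sorted eGFP+ cells from 4 control and 5 mutant samples was amplified from low input with poly(A) selection, and per the labels the libraries carry no strand. The authors deposited 1 table with read counts per gene and library, used here as deposited, and gene lengths. It also holds the authors' FPKM values, the normalized signal per genotype, and the log2 fold change, p-value and adjusted p-value of the authors' own comparison, none of which was used. The submitters' processing notes name STAR, DESeq2 and mm10; the counting tool is not given in the sources used here. Genes were matched by symbol, because the identifier of *Foxd1* differs from that of GENCODE.

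The counts were fitted with edgeR 4.0.16 (R 4.3.3): filterByExpr on genotype, TMM normalization, quasi-likelihood test with robust estimation, and Benjamini-Hochberg adjustment over all 14990 genes tested, with a threshold of 0.05. The steps were tested on simulated data. Single genes were also compared by 2-sided exact permutation tests on log2(CPM + 0.5) over 126 arrangements of the libraries, 1 test for each of the 10 markers, unadjusted. Depth was 21040536 to 23986458 counts per library, so the spread between libraries, and not counting, sets the precision except for genes with few reads.

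The 10 markers, the companion lists and the tests were chosen with earlier results of these data known. Named genes are the 10 markers, the genes called in each list (in longer lists up to 4 with the largest absolute log2 fold change), the 10 other genes of at least 10 CPM that stood out most in mutant replicate 75, and *Uqcrq* and *Six2*; genes named outside this rule were chosen after their values were seen. *Magi2*, whose symbol is repeated, and *Adgre1* were not analysed here, and a further list of cell type markers is not reported here. Alternatives were DESeq2 1.42.0, limma 3.58.1 (voom with sample quality weights), RLE and upper-quartile normalization, filters of at least 1 count in any or 10 counts in every library, stricter thresholds (adjusted p under 0.01, or an absolute log2 fold change of at least 1), pseudocounts of 0.1 and 1 CPM, and each library left out; 2 that leave out pairs of libraries were chosen after seeing the data. Figures were drawn with Python 3.11.15 and matplotlib 3.10.9.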

Additional observations from a re-analysis of the deposited data

Results flagged for a closer look

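Values were screened for a library that stood apart from the others of its genotype, by the gap to its nearest neighbour relative to the range of the group. Of 44 groups screened, 4 were picked out, where chance alone gives about 1 in 20, or 2.2, if the groups are independent and not preselected. Here single markers and their sum overlap, and the markers and mutant replicate 75 were singled out with earlier results known. The 2 numbers therefore do not measure the flags against chance. *Pdgfra* in mutant replicate 75 was high, at 118 CPM against 19.9 to 48.5 CPM in the other mutant libraries. *Ogn* in the same library was high, at 47.0 CPM against 4.67 to 14.4 CPM. The summed level of the 10 stromal markers in this library was high, at 986 CPM against 687 to 753 CPM, a sum that includes *Pdgfra* and *Ogn*. *Meis2* in control replicate 73 was low, at 221 CPM against 270 to 279 CPM in the other control libraries. The causes were not tested.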

How the results depend on the processing

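The number of genes called was 2225, and it was 4858 with limma-voom and sample quality weights, 650 at an adjusted p under 0.01, 799 with an absolute log2 fold change of at least 1, and 1046 (without control replicate 73) to 3136 (without mutant replicate 74) with 1 library left out. It was 1354 without control replicate 71, 1272 without control replicate 72 and 1336 without mutant replicate 78. Of the 10 stromal markers, 7 were called higher; the number was 2 at an adjusted p under 0.01, 4 with an absolute log2 fold change of at least 1, and 3 (without control replicate 73) to 7 with 1 library left out. The number called lower was 0, and 1 with limma-voom and without mutant replicates 74 and 75, in both cases *Pdgfrb*. No marker changed sign under any of the 17 alternatives run on its fold change. The cause of these shifts was not tested, except that a stricter threshold calls fewer genes by construction. *Pdgfra* and *Ogn* passed in every alternative, and 8 of 10 markers had an unadjusted exact permutation p under 0.05 with pseudocounts of 0.1, 0.5 and 1 CPM. The exact test was not run on all genes, so the share to set beside this count is not known. By edgeR, 4709 of the 14990 genes tested had an unadjusted p under 0.05. Both alternatives that leave out pairs of libraries were chosen after seeing the data. No paired analysis was possible because the labels give no litter and no other pairing of the genotypes. Depth limits the genes with few reads, among the markers *Ogn*, *Pdgfra* and *Lum* in control libraries. These had 26 to 63, 29 to 170 and 36 to 416 reads.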

Other observations

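The 10 genes outside the stromal markers with a mean of at least 10 CPM that stood out most in mutant replicate 75 against the median of the other mutant libraries were chosen for that difference, so their values are a description. *Postn* (periostin, a matrix protein) had 113 CPM there, 12.9 to 52.9 CPM in the other mutant libraries and 6.35 to 15.9 CPM in control libraries. *Igfbp6*, a binding protein of insulin-like growth factors, had 285 CPM, against 33.6 to 77.5 CPM and 23.3 to 30.3 CPM. *Cldn1*, a tight junction claudin, had 87.4 CPM, against 11.7 to 26.7 CPM and 1.87 to 9.58 CPM. *Serping1*, the C1 inhibitor of complement, had 122 CPM, against 29.3 to 47.6 CPM and 32.9 to 39.4 CPM. *Cyp2d22* had 32.1 CPM, against 5.51 to 19.6 CPM and 8.09 to 9.74 CPM. None of these 5 genes passed the edgeR threshold between genotypes, with adjusted p of 0.0624 for *Postn*, 0.0586 for *Igfbp6*, 0.0501 for *Cldn1*, 0.359 for *Serping1* and 0.252 for *Cyp2d22*. The other 5 were *Tmem87a* and *Gm13841*, *Gm15920*, *Pcna-ps2* and *Eif3j2*, of which the last 4 are pseudogenes or have a near-identical copy, so that their counts are uncertain. Mutant replicate 75 was not the highest mutant library for *Tmem87a* (49.7 CPM, against up to 70.7 CPM) or *Gm15920* (27.3 against up to 29.5 CPM). Nor was it for *Pcna-ps2* (26.3 against up to 33.4 CPM) or *Eif3j2* (21.3 against up to 26.7 CPM).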
